A study of Mus musculus with 2 samples.

Results

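The genes of the AP-1 transcription factor and its companion immediate early genes were compared between mouse small-intestinal organoids grown with RankL and organoids grown without it. The members are Jun, Junb, Jund, Fos, Fosl1, Fosl2, Atf3, Egr1, Ier2 and Ier3, and they were found by matching the RefSeq accession of each array probe to these symbols. All 10 had a probe, out of 32235 genes or accessions on the array, and 9 were measured, out of 12877. A gene counted as measured where a probe was well above background on both arrays in at least 1 of the RNAs. The member left out by this filter was Fosl1, and Junb and Fosl2 had 2 probes each.

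AP-1 is a dimer of a Jun protein with a Fos, ATF or second Jun protein, joined by a leucine zipper, and it binds short DNA sites such as TGANTCA. Immediate early genes are switched on within minutes of a signal, without new protein synthesis, and most of their transcripts are short-lived. In the intestinal epithelium, EGF receptor signalling through the kinase ERK is a well-known inducer of Fos and Egr1, and in bone RANK needs Fos, beside NF-kB, to form osteoclasts.

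Both groups were organoids of wild-type mice, epithelial structures grown from crypts in medium that held EGF, Noggin and R-spondin. The treated organoids received recombinant mouse RankL, the cytokine that binds the receptor RANK, in a range of 50 to 200 ng/ml, and medium was renewed on day 2 and day 5. The labels do not give the exact dose, the time of harvest, the age of the mice or the number of cultures behind each RNA. One RNA of each group was hybridised on a dual-colour array and again on a dye-swapped array of the same slide, with the RankL RNA labelled with Cy3 on array 1 and Cy5 on array 2. There was thus 1 replicate per condition and no statistical test. Every ± below is the SD over both arrays, which measures technical error only and nothing of how cultures differ. The values of a group on both arrays are likewise technical readings of 1 RNA. How many of all measured genes had readings without overlap between the groups was not counted.

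The organoid label was checked against cell type markers. All 8 epithelial markers were measured (median log2 ratio of RankL over untreated -0.029), and of these Krt20, a keratin of differentiated enterocytes, was the one called higher with RankL, by 2.40 ± 0.30, while another keratin, Krt18, read -0.92 ± 0.29 and 4 of the 8 lay below 0. None of 7 leukocyte, 3 endothelial or 3 glial and neuronal markers was measured, while 3 of 7 fibroblast and muscle markers were (Acta2, Col1a2 and Vim, with a summed normalised signal of 2235 and 2159 with RankL and of 1515 and 1530 without). Acta2 read 0.62, but -0.087 by a second probe, Col1a2 read 0.17 and Vim -0.067, and none of the 3 was called. The 6 M cell markers, of the antigen-sampling cell named in the series' title, were all called higher with RankL by the size rule given below (median 5.01), and their summed normalised signal was 60359 and 62732 with RankL against 2527 and 1957 without. The part of these marker changes in the ratios of the AP-1 genes was not tested. In these whole-organoid RNAs, fewer cells of a type and less RNA per cell cannot be told apart.

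The upstream sequences of 3 members are shown here: Junb and Fosl2, which had the highest ratios below, and Atf3, which had one of the lower ratios. Egr1 and Ier2 read lower than Atf3, but no upstream sequence was available for them. Each is the 250 bases before the RefSeq start in GRCm38.p6, 5′ to 3′ on the gene's strand. Capitals mark letters that match a searched motif. Junb lies at chr8:84978749-84978998, minus strand, Fosl2 at chr5:32136222-32136471, plus strand, and Atf3 at chr1:191183334-191183583, minus strand.
Junb: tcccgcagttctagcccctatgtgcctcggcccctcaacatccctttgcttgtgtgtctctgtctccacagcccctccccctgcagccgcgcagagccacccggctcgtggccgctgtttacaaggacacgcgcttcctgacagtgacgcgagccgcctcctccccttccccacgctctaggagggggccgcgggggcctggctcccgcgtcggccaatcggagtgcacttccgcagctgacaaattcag
Fosl2: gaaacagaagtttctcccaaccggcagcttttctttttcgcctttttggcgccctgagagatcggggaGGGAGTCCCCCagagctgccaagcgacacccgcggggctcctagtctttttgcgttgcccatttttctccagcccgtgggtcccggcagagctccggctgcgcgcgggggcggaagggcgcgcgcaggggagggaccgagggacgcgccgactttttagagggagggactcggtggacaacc
Atf3: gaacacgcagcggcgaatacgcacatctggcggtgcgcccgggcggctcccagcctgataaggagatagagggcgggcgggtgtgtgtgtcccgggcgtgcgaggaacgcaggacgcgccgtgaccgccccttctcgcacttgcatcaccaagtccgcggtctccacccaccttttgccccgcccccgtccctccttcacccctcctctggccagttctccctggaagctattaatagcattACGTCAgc

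The motifs searched on both strands were the AP-1 site TGANTCA, the ATF and Jun site TGACNTCA, the CRE core TGACGT (which can overlap the ATF and Jun site), the NF-kB site and the CArG box bound by SRF. The RefSeq table held 7 of the 10 members, and not Fosl1, Egr1 or Ier2. Of 32851 upstream stretches of this length, 6.75% held the AP-1 site, 7.49% the ATF and Jun site, 6.47% the CRE core, 7.25% the NF-kB site and 1.47% the CArG box. The stretch of Atf3 held 1 CRE core, from 8 to 3 bases before the start, and that of Fos held 1 from 66 to 61 bases before it. Jun held the ATF and Jun site as TGACATCA, from 45 to 38 bases before its start. Fosl2 held 2 overlapping NF-kB sites between 182 and 172 bases before the start, and Fos and Ier3 held 1 each. Junb and Jund matched no motif, and no member held the AP-1 site or the CArG box within this window. These matches are letters only, and binding was not measured.

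The main question for these genes was whether the AP-1 and immediate early genes differed between the organoids with and without RankL. Their ratios had either sign. On both arrays Junb, Fosl2 and Jund read above 0, by 0.62 or more, and Egr1, Ier2, Atf3 and Fos read below 0, while Jun and Ier3 had means within 0.12 of 0. Of the 9 measured members, 8 had the same sign on both arrays and 8 had a mean ratio larger than its SD between arrays. The same shares over all measured genes were not counted, so neither count sets the members apart. None met the size rule of a mean log2 ratio of at least 1 in size and at least 0.5 on each array, so 0 were called higher and 0 lower, where 5.47% of all measured genes were called higher and 2.5% lower. With 0.5 in place of 1 for the mean, 3 were called higher (Junb, Fosl2 and Jund) and 2 lower (Egr1 and Ier2), beside 10.2% and 6.63% of all measured genes. Their median ratio was -0.12 (0.047 on array 1 and -0.28 on array 2), against 0.0086 over all measured genes.

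**Figure D1:**
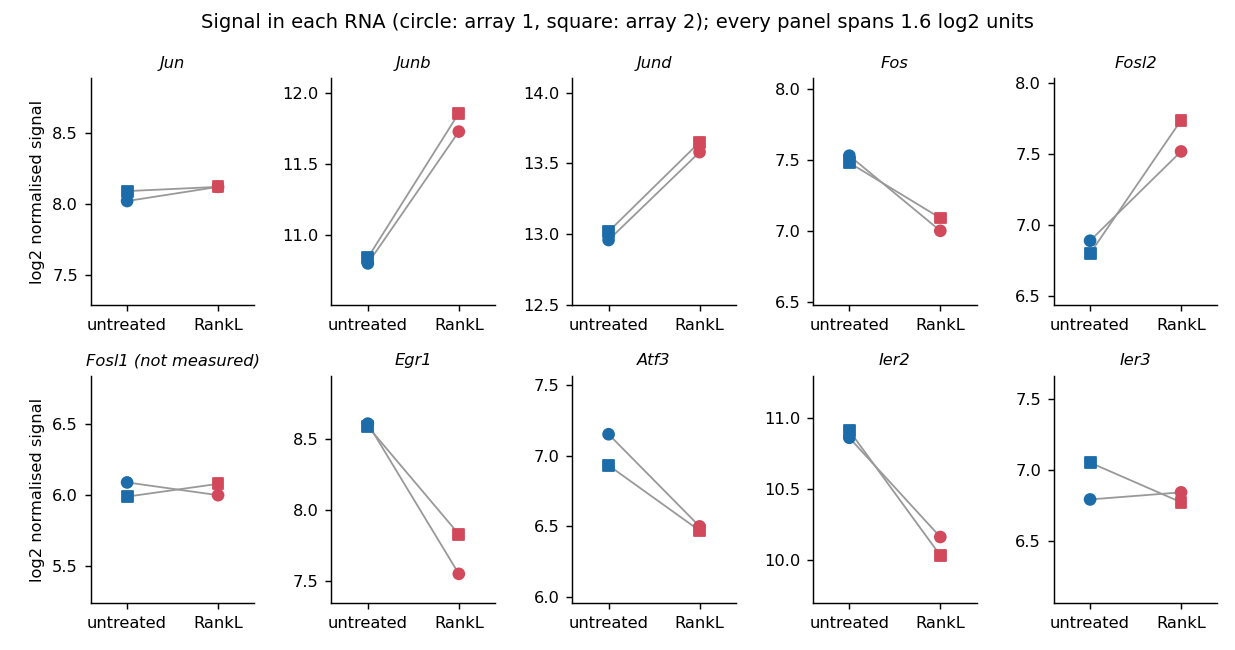
Log2 normalised signal of each member in untreated RNA (blue) and RankL RNA (red), on array 1 (circles) and array 2 (squares), with a line joining the RNAs of 1 array. Every panel has its own scale because signals of different probes cannot be compared; the lines go up for Junb, Jund and Fosl2, go down for Egr1, Atf3, Ier2 and Fos, and differ in direction between the arrays for Ier3 and Fosl1.

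The Jun genes encode the partners that every classical AP-1 dimer needs. Junb, which can replace or oppose Jun depending on its partner, had log2 normalised signals of 11.73 and 11.86 with RankL on arrays 1 and 2 and of 10.80 and 10.84 without. Its values with RankL lay above both untreated values. The log2 ratio was 0.94 on array 1 and 1.02 on array 2, with a mean of 0.98 ± 0.058 or 1.97-fold. The second Junb probe read 0.78 and 1.13, a mean of 0.95 ± 0.25. Of all measured genes, 5.66% had a ratio at or above that of Junb. The spots were bright, with raw signals of 2925 and 3806 in RankL RNA over local backgrounds of 20 and 112.

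Jund, the Jun gene known for steady expression in resting cells, stood at 13.58 and 13.65 with RankL and at 12.96 and 13.02 without. Both RankL readings lay above both untreated ones, and the ratio was 0.63 ± 0.0032 or 1.54-fold. It was 0.36 when each array was centred on its median in place of the intensity-dependent loess curve. Jun itself, the founding member, was printed on 10 spots per array. It stood at 8.12 on both arrays with RankL and at 8.02 and 8.09 without, a ratio of 0.069 ± 0.054. Single Jun spots ran from -0.20 to 0.25 on array 1 and from -0.15 to 0.20 on array 2, on both sides of 0, and median centring turned the sign of the mean to -0.0091.

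The Jun genes thus had unequal ratios. The ratio of Junb exceeded that of Jun by 0.91 ± 0.11 on the log2 scale (0.83 on array 1 and 0.99 on array 2), and that of Jund by 0.35 ± 0.055. Jund exceeded Jun by 0.56 ± 0.057.

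The Fos genes encode the partners that bind DNA only as dimers with a Jun protein. Fosl2, which encodes Fra-2, had signals of 7.52 and 7.74 with RankL and of 6.89 and 6.80 without. Both RankL values lay above the untreated ones. The ratio was 0.62 on array 1 and 0.95 on array 2, with a mean of 0.79 ± 0.23 or 1.72-fold, and a second probe read 0.33 and 0.74 (mean 0.54 ± 0.29).

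Fos, the classical immediate early gene, was at 7.0 and 7.09 with RankL and at 7.53 and 7.48 without. Each of its 10 spots read below 0 on array 1, from -0.70 to -0.36, and on array 2, from -0.68 to -0.076. The mean ratio was -0.46 ± 0.095, or 1.37-fold lower, and its size depended on the processing. Under the scanner software's own log ratios it was -0.91. Spots of 1 array share the same RNA and are no replicates of the condition. Fosl1, which encodes Fra-1, was not well above background in either RNA on either array, with signals of 6.0 and 6.08 with RankL and of 6.09 and 5.99 without, so no fold is given. Fosl2 and Fos differed in ratio by 1.24 ± 0.13 (1.15 and 1.34 on the arrays).

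Egr1 encodes a zinc finger factor that ERK signalling induces. Its signals were 7.55 and 7.83 with RankL and 8.61 and 8.59 without, so that both RankL values lay below both untreated ones. The ratio was -1.06 on array 1 and -0.76 on array 2, with a mean of -0.91 ± 0.21 or 1.88-fold lower. Of all measured genes, 2.98% had a ratio at or below it.

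Atf3, a stress-induced member of the ATF and CREB family that can pair with Jun proteins, was at 6.50 and 6.47 with RankL and at 7.15 and 6.93 without. Its ratio was -0.66 and -0.46, a mean of -0.56 ± 0.14 or 1.47-fold lower, and 8.18% of measured genes lay at or below it. The gene was dim. In RankL RNA the raw signal was 57 over a background of 24 on array 1, which was not well above background, and 142 over 111 on array 2, which was. In untreated RNA it was 193 over 107 and 90 over 20, well above background on both.

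Ier2, a small nuclear immediate early protein, was at 10.16 and 10.03 with RankL and at 10.86 and 10.91 without. Both RankL readings lay below both untreated ones, and the ratio was -0.79 ± 0.13 or 1.73-fold lower. Ier3, an immediate early gene that is also an NF-kB target and modulates cell survival, was at 6.84 and 6.77 with RankL and at 6.79 and 7.05 without. Here the readings overlapped and the arrays differed in sign, with 0.047 and -0.28 (mean -0.12 ± 0.23). The ratio of Ier3 exceeded that of Ier2 by 0.67 ± 0.10.

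**Figure D2:**
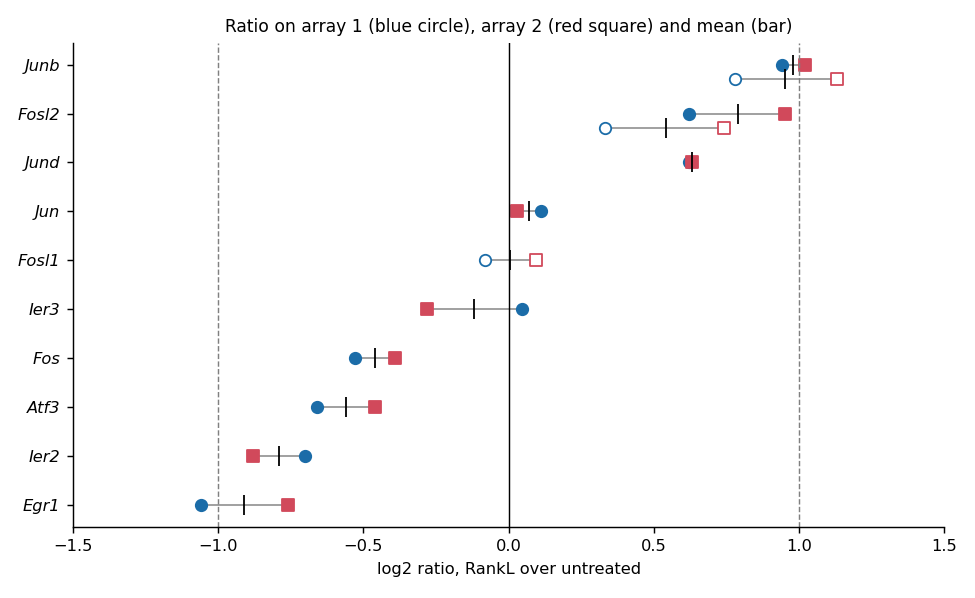
Log2 ratio of RankL over untreated for each member on array 1 (circles) and array 2 (squares), with the mean as a black bar; open symbols are the second probes of Junb and Fosl2 and the unmeasured Fosl1, and dashed lines mark 2-fold. Junb at 0.98 and Egr1 at -0.91 are the extremes, and only Ier3 among the measured members has a different sign on each array.

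Junb was contrasted with Egr1 and Atf3 directly. The log2 ratio of Junb exceeded that of Egr1 by 2.00 on array 1 and 1.78 on array 2, a mean difference of 1.89 ± 0.15, or 3.7-fold between the genes' ratios. It exceeded that of Atf3 by 1.59 and 1.48, a mean of 1.54 ± 0.080 or 2.9-fold. Junb and Egr1 had the highest and lowest ratios of the 9 measured members, which were chosen with earlier results of these data known. Their difference is thus the widest among the members, and its SD, technical error only, is no test of it. Atf3 was above background with RankL on 1 of 2 arrays, so the size of its difference is uncertain, and it has no value where both RNAs must be above background. Egr1 and Atf3 differed from each other by -0.35 ± 0.073. These are differences between ratios, and the signals of different probes were not compared.

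The order of the members from the highest ratio to the lowest was Junb, Fosl2, Jund, Jun, Ier3, Fos, Atf3, Ier2 and Egr1. Junb and Fosl2 differed by 0.19 ± 0.17, little more than the spread between arrays, and Atf3 and Fos by -0.10 ± 0.043. The order changed with the processing at both ends: Fosl2 read above Junb with the smaller offset of 16 (1.02 against 0.99) and with the scanner software's ratios, under which Atf3 also read below Egr1.

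**Figure D3:**
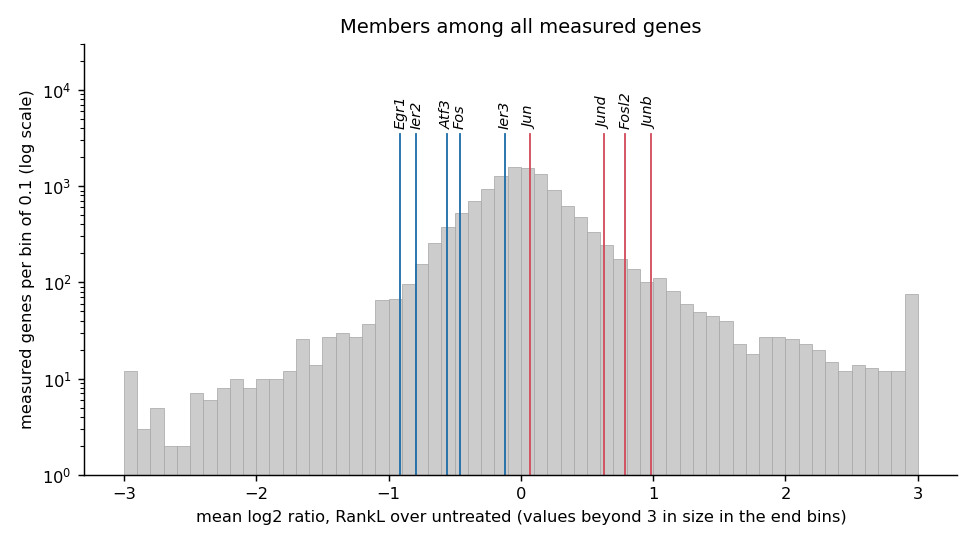
Histogram of the mean log2 ratio of RankL over untreated over all 12877 measured genes, in bins of 0.1 with a log-scaled count axis, with the 9 measured members as lines (red above 0, blue below). Junb, at 0.98, has 5.66% of measured genes at or above it, and Egr1, at -0.91, has 2.98% at or below it.

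The scanner software's own log ratios, whose background and dye steps differ from those of the main setting, gave values larger in size for the dim members. The cause was not tested. Under them Fosl2 read 1.32, Junb 1.00, Egr1 -1.27 and Atf3 -1.52, so 2 members were called higher and 2 lower by the size rule, where 8.92% and 6.07% of all measured genes were. Fos read -0.91, Ier2 -0.89 and Ier3 -0.32 there. The ratio of Junb exceeded that of Atf3 by 2.52 under these ratios, against 1.54. Junb was called on array 2 alone and Egr1 on array 1 alone. The directions of Junb, Fosl2, Jund, Egr1, Ier2, Atf3 and Fos were kept in each alternative that gave a value.

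**Figure D4:**
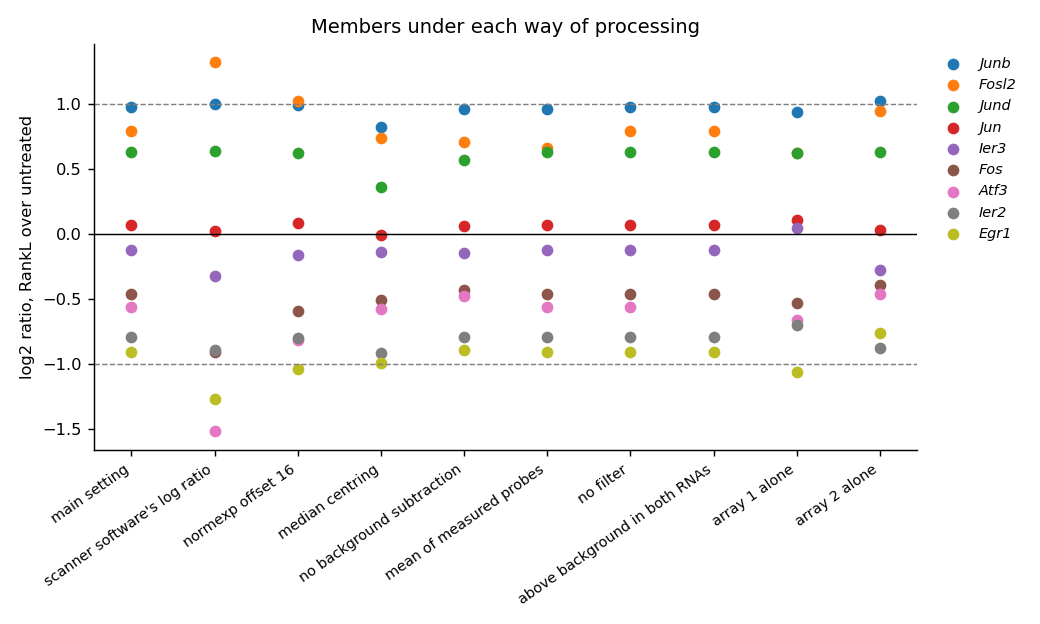
Log2 ratio of RankL over untreated for each measured member under the main setting and 9 other ways of processing, with dashed lines at 2-fold. Jund runs from 0.36 to 0.64, Atf3 from -1.52 to -0.46 and Egr1 from -1.27 to -0.76. Jun runs from -0.0091 to 0.11 and Ier3 from -0.32 to 0.047, each with either sign.

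The wider AP-1 and CREB/ATF family was described from a list of 26 related leucine zipper genes, of which 21 were measured. The size rule called 3 higher and 0 lower, and left 18 uncalled, with the median at 0.044. Of all measured genes, 5.47% were called higher and 2.5% lower. Nfe2l1, which drives proteasome gene expression, was at 1.56 ± 0.28. Creb3l3, a membrane-bound factor of liver and gut that controls lipid genes, was at 1.22 ± 0.23. Maf, not well above background without RankL, read 1.02 ± 0.014 or 2.02-fold higher. Fosb, the remaining Fos gene, chosen after its value was seen, read -0.19 ± 0.094.

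Other immediate early genes also went both ways. Of 38, 31 were measured, and the size rule called 6 higher and 2 lower and left 23 uncalled. The shares over all measured genes were 5.47% higher and 2.5% lower. The list's median was 0.25, but 0.080 with median centring and 0.0085 with dim probes included. Arc, best known from neurons, was highest at 2.60 ± 0.16 or 6.07-fold. Ier5, a relative of Ier2, was at 1.35 ± 0.070, Sgk1, a kinase that regulates ion transport, at 1.31 ± 0.53, and Csrnp1 at 1.23 ± 0.099. The growth arrest and stress genes Gadd45g and Gadd45a were at 1.89 ± 0.062 and 1.57 ± 0.24, whereas Gadd45b was the lowest of the list at -1.42 ± 0.24, with a second probe at -1.29. Myc was at -1.03 ± 0.082, with other probes at -0.88 and -0.49. Within both the Ier and the Gadd45 families, therefore, ratios of opposite sign were read.

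The upstream kinase genes were mostly near equal. Of 17 measured genes of the EGF receptor and ERK cascade out of 21, 0 were called higher and 0 lower (median 0.076). The farthest from 0 were Elk3, Map2k1 and Nras. Elk3, a partner of SRF not above background without RankL, read 0.74 ± 0.045 or 1.67-fold higher (0.19 by a second probe). Map2k1, a kinase that activates ERK, was at -0.42 ± 0.33. Nras was at 0.40 ± 0.14, with other probes at 0.19 and 0.16. Of 14 measured genes of the JNK and p38 cascade out of 17, 1 was called higher and 0 lower (median 0.023). The gene called was Mapk11, which encodes p38 beta, at 1.68 ± 0.076. Beside both cascades, 5.47% of all measured genes were called higher and 2.5% lower. Map2k6, a kinase that activates p38, was at -0.63 ± 0.0070 and Mapk13, p38 delta, at -0.54 ± 0.023.

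Only 2 of 7 EGF family ligands were measured and neither was called (median -0.13), with Areg at 0.59 ± 0.18 and Hbegf at -0.85 ± 0.071. Of 11 measured MAPK phosphatases and feedback inhibitors out of 19, 1 was called higher and 0 lower. Their median was 0.15, and -0.049 with dim probes included. Among all measured genes, 5.47% were called higher and 2.5% lower. Dusp14, not well above background without RankL, read 0.70 on array 1 and 1.36 on array 2. Its mean was 1.03 ± 0.47 or 2.04-fold higher, and its second probe read 0.45. Dusp3 was at 0.97 ± 0.33. Dusp6, a phosphatase that ERK signalling induces and that in turn inactivates ERK, was at -0.99 ± 0.33. Spry2, Dusp7 and Errfi1, further inhibitors of receptor kinase signalling that were chosen after their values were seen, read -0.92 ± 0.18, -0.75 ± 0.41 and -0.74 ± 0.48. Others of the list read above 0 on both arrays, such as Dusp4 at 0.40 ± 0.30, Dusp8 at 0.40 ± 0.038 and Spry1 at 0.15 ± 0.11, and 6 of the 11 lay above 0.

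Stress genes were read because Atf3 is a target of Atf4, the factor of the integrated stress response. Atf4 itself, chosen after its value was seen, read -0.27 ± 0.17. The measured genes of this list lay above 0 in 6 cases and below 0 in 6. Of 12 measured stress and heat shock genes out of 14, 0 were called higher and 1 lower (median 0.0016, a value whose sign changed with the processing). Asns, asparagine synthetase, was at -1.15 ± 0.45, Trib3 at -0.50 ± 0.070 with a second probe at -0.25, and Hmox1, heme oxygenase, at 0.64 ± 0.29. Of 16 listed AP-1 target genes 7 were measured, with 0 called higher and 2 lower (median -0.067, with either sign across the alternatives). Beside both lists, 5.47% of all measured genes were called higher and 2.5% lower. The metallothionein genes Mt1 and Mt2, whose proteins bind zinc and other metals, were at -1.24 ± 0.12 and -1.07 ± 0.22, and the adhesion receptor Cd44 was at 0.80 ± 0.057, with a second probe at 0.72. None of the matrix metalloproteinase genes Mmp3, Mmp9, Mmp10 and Mmp13 was measured.

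NF-kB target genes set the members beside the other arm of RANK signalling. All 11 measured of 13 were called higher, with a median of 2.18, beside 5.47% of all measured genes called higher. The list was written with earlier results of these data known, so this count was not independent of the data. Values ran from Icam1 (not above background without RankL, at least 1.94-fold higher) to Nfkbia, the inhibitor of NF-kB, at 2.87 ± 0.15. Nfkb2 was at 2.75 ± 0.29, Tnfaip3 at 2.72 ± 0.12, Tnip1 at 2.40 ± 0.0031, Bcl3 at 2.22 ± 0.18, Nfkbie at 2.18 ± 0.43 and Relb at 1.82 ± 0.24. The others were Birc3 at 1.55 ± 0.038, Nfkbib at 1.16 ± 0.24 and Traf1, at least 3.44-fold higher and likewise dim without RankL. Under the scanner software's ratios the median of this list was 2.89, and on array 1 alone it was 1.87. The difference between the lists was not tested.

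**Figure D5:**
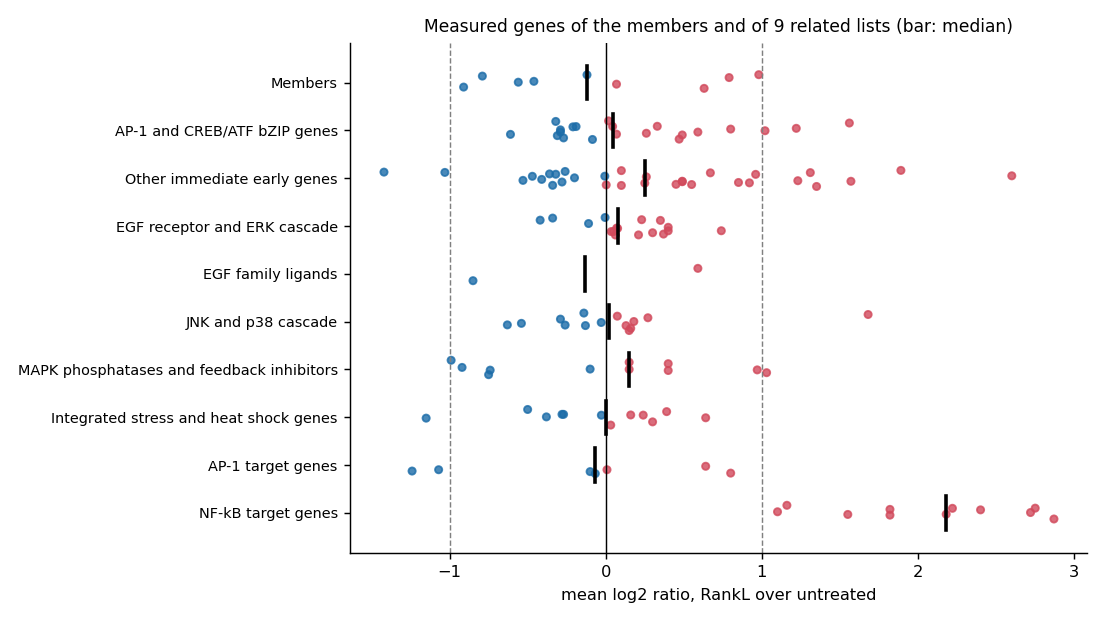
Mean log2 ratio of RankL over untreated for each measured gene (points, red above 0 and blue below; vertical scatter has no meaning) of the members and of 9 related lists, with the median of each as a black bar and dashed lines at 2-fold. The members run from -0.91 to 0.98 around a median of -0.12, while the NF-kB target genes have a median of 2.18. The points of Icam1, Traf1, Maf, Elk3 and Dusp14 are plotted at the ratio read, although all were dim without RankL.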

How the data were processed

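Total RNA of organoids was amplified and labelled with Cy3 or Cy5, per the labels' protocols. The deposited scanner files hold spot intensity as median pixel brightness per channel, with no normalization, from Agilent Feature Extraction 10.5.1.1, per the file headers (8.5.1.1 per the submitters' processing notes). The same software subtracted background and balanced the dyes for the deposited log10 ratios (Cy5 over Cy3), per the file headers, and the authors' series matrix holds them turned to RankL over untreated (largest difference 5e-06). Deposited flags mark spots well above background.

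Background was corrected with normexp (offset 50) and ratios normalized by loess in limma 3.58.1 under R 4.3.3, with 1639 control spots at weight 0. The offset draws ratios of dim spots towards 0. Outlier spots (170 and 164) were left out, and 0 were saturated. Spots of a probe were averaged, and a repeated probe was above background where 0.5 of its spots were. Signals per RNA are log2 values after loess and Aquantile scaling. A gene took its brightest measured probe. For Icam1 and Traf1, dim in 1 RNA on both arrays, "at least N-fold" is a bound. It sets the bright RNA against the higher of the probe's own signal and the lowest signal above background. For Maf, Elk3 and Dusp14 this bound equals the ratio read, so the ratio itself is given. Accessions named 65.4% of probes through GRCm38.p6. The pipeline was run on simulated arrays with known ratios. These were set only in spots well above background in both RNAs, so the simulation does not cover dim members. Well above background were 38.3% to 43.4% of spots, and the 1 RNA pair limits the precision. The array design uses mm9, so no gene coordinates are given beside the upstream sequences.

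The members and lists were chosen with earlier results of these data known. Named genes were all members and, from each of 9 lists, every measured gene that met the size rule and the 3 farthest from 0. Alternatives were the scanner software's ratios, offset 16, median centring, no background subtraction, all probes averaged, no filter, a stricter filter, each array alone, and a size rule of 0.5.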

Additional observations from a re-analysis of the deposited data

How the results depend on the processing

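Of the 9 measured members, 7 kept their sign in every alternative that gave a value, and Jun (-0.0091 with median centring) and Ier3 (0.047 on array 1 alone) did not. Members called higher were 0 in the main setting and 2 with the scanner software's log ratio, beside 5.47% and 8.92% of all measured genes. Offset 16 called 1 higher (Fosl2), beside 6.87%, and array 2 alone called 1 (Junb), beside 5.68%. With the size rule of 0.5, 3 were called higher, beside 10.2%. Members called lower were 0 in the main setting and 2 with the software's ratio, beside 2.5% and 6.07% of all measured genes. Offset 16 called 1 lower (Egr1), beside 3.32%, and array 1 alone called 1 (Egr1), beside 2.56%. With the size rule of 0.5, 2 were called lower, beside 6.63%. The members' median ran from -0.32 (software) to 0.047 (array 1 alone). Junb minus Egr1 was 2.27 with the software's ratio and ran from 1.78 to 2.27. Junb minus Atf3 was 2.52 with the software's ratio, 1.81 with offset 16, 1.44 without background subtraction and 1.4 with median centring. It had no value where both RNAs had to be above background, since Atf3 then dropped out. The median of the other immediate early genes was 0.0085 without a filter and 0.080 with median centring, and that of the NF-kB target genes ran from 1.87 (array 1 alone) to 2.89 (software). The median of the MAPK phosphatases was -0.049 without a filter, and that of the AP-1 target genes 0.0078 without a filter and 0.0080 on array 2 alone. The causes were not tested. Signal near background limits Atf3, which was above background with RankL on 1 of 2 arrays, and Fosl1, which was above it in neither RNA.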
